A study of Drosophila melanogaster with 12 samples.

Results

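The comparison described here sets the last hours of a feeding time course against the hours just before them. It takes the arrays titled hour 10, 11 and 12 against those titled hour 7, 8 and 9, which is 6 of the 12 arrays of the series, chosen by title alone. Each Affymetrix array was hybridised with RNA of whole flies (Drosophila melanogaster), and each hour had 1 array. All 12 arrays share 1 treatment: the animals ate standard food until early in the third larval instar, then standard food without yeast through metamorphosis and on to 4 days after emergence, and were then given food with yeast again. The hour counts from that return of yeast, and the labels give neither sex, strain nor the number of flies per array. Flies kept without yeast were not analysed here. Hour cannot be told apart from time of day, age or order of handling, and the 3 arrays of a window are 3 successive hours, so their spread includes any change between those hours as well as technical spread.

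Yeast is the main source of protein and lipid in laboratory fly food. When it returns, digestive enzymes of the midgut break it down, the fat body stores fat and secretes yolk proteins and lipid carriers, and the ovary resumes making eggs. Insulin and TOR signalling link the food to these tissues, and transcripts of the circadian clock follow the time of day in parallel. In RNA of whole flies a lower level can stand for fewer cells of a type or for less RNA per cell, and the arrays cannot tell these apart.

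Some of the 6 arrays stood apart from the rest. Acp95EF, a product of the male accessory gland, read 477.4 on the hour 9 array and 478.3 on the hour 10 array, but only 38.5 to 43.2 at hours 7, 8, 11 and 12. The testis transcript Mst84Dd read 351.8 and 277.4 at hours 9 and 10 and between 109.2 and 124.3 on the other 4. Male transcripts thus sat on 1 array of each window, and the first principal component of the 6 arrays, with 48.3% of their variance, placed hours 9 and 10 at 17.4 and 13.4 and the other 4 between -10.3 and -5.8. Hour 9 had the highest median intensity of the 12 arrays, 120.2, against 113.6 to 116.4 on the others. For the GAPDH control transcript, the log2 signal of its 3' end minus that of its 5' end, a measure of RNA quality, was 2.32 at hour 10 against 1.33 to 1.8 on the other 11 arrays, while the actin and eIF4A controls did not set it apart. Any 2 of the 6 arrays correlated at a Pearson r of 0.966 to 0.992 over the tested probe sets. The part of these measures in the results was not tested. Differences without hours 9 and 10 are given beside many of the results.

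**Figure D1:**
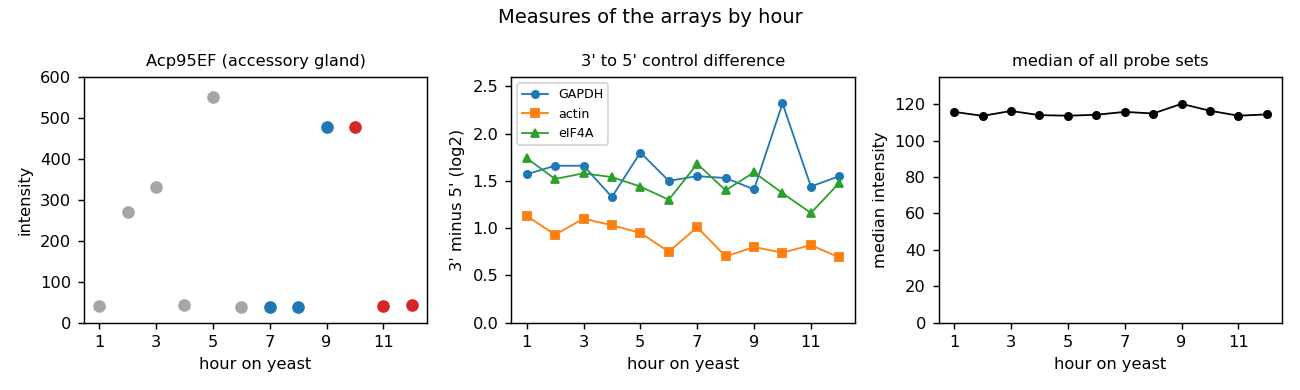
Measures of the 12 arrays by hour on yeast. Left, the intensity of Acp95EF, with hours 7-9 in blue and hours 10-12 in red: hours 9 and 10 are at 477.4 and 478.3. Middle, the log2 signal at the 3' end minus that at the 5' end of control transcripts, with GAPDH at 2.32 at hour 10. Right, the median intensity, at 120.2 at hour 9.

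No probe set differed between hours 10-12 and hours 7-9 at the threshold. Among 11586 tested probe sets, 0 were higher and 0 lower at a limma adjusted p under 0.05 (0%), and the smallest adjusted p was 0.974. At an unadjusted limma p under 0.05 there were 568 (4.9%), where an even spread of p over its range puts 579.3 in such a bin. Of these, 127 (1.1%) were higher and 441 (3.81%) lower. Quantile normalization turned this split to 296 higher and 249 lower, and median normalization gave 235 and 301. Single arrays moved the counts too: they were 302 and 616 without hour 10, and 63 and 245 without hour 12. The earlier step, hours 4-6 against hours 1-3, also had 0 at the adjusted threshold and 853 (7.36%) at the unadjusted one. Only 1 probe set had a late difference of at least 1 on the log2 scale, and over all tested probe sets the difference ran from -1.27 to 0.71 with a median of -0.02. The mean was higher in 4669 of the 11586 and lower in 6905, the background for counts of means in the gene lists.

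**Figure D2:**
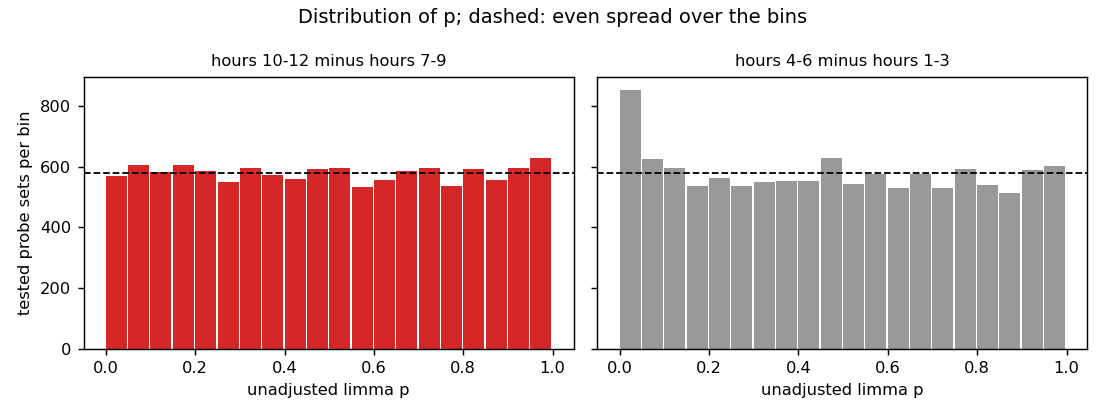
Number of tested probe sets per bin of unadjusted limma p, for hours 10-12 minus hours 7-9 (left) and hours 4-6 minus hours 1-3 (right). The dashed line marks 579.3 per bin, an even spread. The lowest bin holds 568 probe sets on the left and 853 on the right.

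A second, descriptive rule asked whether every array of hours 10-12 lay on the same side of every array of hours 7-9. By it 329 probe sets (2.84%) were higher and 692 (5.97%) lower. This split towards lower values hung on the normalization: after quantile normalization 621 were higher and 402 lower, and after scaling to one median 541 and 452. The shares of 2.84% and 5.97% are the background for counts of list genes higher or lower on every array. Of the 27 probe sets that kept their windows apart with a mean difference of at least 0.5, 6 were higher (0.0518%) and 21 lower (0.181%). In what follows, direction words describe levels on these arrays. No gene named passed the adjusted test, the smallest limma adjusted p among them being 0.974.

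Enzymes that digest starch and its sugars made up 3 of the 6 probe sets that were higher by at least 0.5, the others being tim, Hsp26 and CG16813, the last named after its values were seen. Maltases cut maltose and short glucose chains to glucose, and amylase cuts starch. Mal-A6 read 100.6, 96.8 and 107.3 at hours 7 to 9 and 118.1, 191.9 and 202.6 at hours 10 to 12, a difference of 0.71 ± 0.24 (SE of the fit, 3 arrays a window). Mal-A1, named after its values were seen, read 414.8, 394.5 and 423.1 and then 485.8, 666.6 and 741.6, a difference of 0.60 ± 0.22. Amy-d, which encodes an amylase, read 397.8, 445.6 and 390.5 and then 571.9, 621.0 and 654.5, a difference of 0.58 ± 0.19. In all 3 genes the hour 10 array was the lowest of its window and still above the whole earlier window. Without hours 9 and 10 the differences were 1.00, 0.80 and 0.60. The list of amylases and maltases as a whole did not share this: of 13 tested genes 3 were higher and 1 lower on every array, with a median difference of 0.01, or 0.07 without hours 9 and 10. The 1 was Mal-B2, another maltase, which read 126.9, 149.2 and 121.7 and then 104.1, 112.2 and 110.0 (-0.28 ± 0.10). For comparison, 2.84% of all tested probe sets were higher on every array and 5.97% lower.

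Digestive proteases of the gut were divided mainly between families, with more Jonah genes higher in their mean and more trypsin genes lower. Jon25Biii, a serine protease of the Jonah family, read 1148.6, 1587.5 and 1484.0 and then 1894.0, 1975.7 and 1889.3, a difference of 0.46 ± 0.18. Its family member Jon99Fi lay on the other side, with 1266.4, 1222.8 and 1106.6 before 823.6, 1142.2 and 837.9 (-0.37 ± 0.14), and there the windows overlapped. Jon25Bii, whose difference in the earlier step was 1.75, read 1298.9, 1974.0 and 1686.3 and then 1731.0, 2110.7 and 2587.1, a late difference of 0.38 ± 0.30 with overlapping windows. Of 13 Jonah genes tested 11 had a higher mean and 2 a lower one, Jon99Fi among the 2. On every array 1 of the 13 was higher and 0 lower, with a list median of 0.13, or 0.07 without hours 9 and 10. Of 14 trypsin family genes 0 were higher and 3 lower on every array (iotaTry, alphaTry and Ser8), with a median of -0.10. Of the 14, 3 had a higher mean and 11 a lower one. Over all 11586 tested probe sets the mean was higher in 4669 and lower in 6905. On every array 2.84% of them were higher and 5.97% lower. Peritrophin-15a, from the matrix that lines the gut, read 690.8, 692.2 and 718.1 and then 579.9, 572.2 and 573.3 (-0.28 ± 0.09).

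Among genes of fat storage, the lipid droplet coat protein gene Lsd-1 had the smallest unadjusted limma p of all named genes whose windows did not overlap. Lsd-1, the fly perilipin 1, read 416.7, 509.0 and 379.8 at hours 7 to 9 and 215.5, 234.6 and 317.7 at hours 10 to 12. The difference was -0.78 ± 0.14, after -0.00 in the earlier step, and -0.75 without hours 9 and 10. Across hours 1 to 9 its readings stayed between 379.8 and 509.0, so the 3 late arrays were the 3 lowest of the series. The other perilipin gene, Lsd-2, read 257.1, 254.0 and 187.4 and then 268.5, 250.2 and 376.7, so that its windows overlapped (0.35 ± 0.18). FASN1, a fatty acid synthase, read 596.3, 702.8 and 494.3 and then 384.7, 446.0 and 442.2, a difference of -0.48 ± 0.21. Of 19 genes of fatty acid synthesis and fat storage 0 were higher and 3 lower on every array, and 17 had a lower mean (6905 of 11586 over all tested probe sets). Of 14 fatty acid oxidation genes 2 were higher on every array, Arc42 (0.17 ± 0.07) and Acox57D-d (0.19 ± 0.08), and 0 lower. Their mean was higher in 9 and lower in 5. These counts rest on few genes. Among all 11586 tested probe sets, 2.84% were higher on every array and 5.97% lower, and 4669 had a higher mean. The medians of the synthesis and oxidation lists were -0.07 and 0.07, against -0.02 for all tested probe sets. Without hours 9 and 10 they were -0.02 and 0.16, against -0.01.

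The 3 yolk protein transcripts read highest at hours 11 and 12, with hour 10 apart from them. Yp1, which encodes a yolk protein made in fat body and follicle cells, read 2425.5, 1780.3 and 2242.3 and then 2069.7, 3671.0 and 5204.0. Yp2 read 1916.7, 1779.0 and 2186.6 and then 1682.2, 3135.3 and 4479.3. Yp3 read 3332.9, 3444.7 and 3391.4 and then 3590.9, 4557.3 and 5854.1. For Yp1 and Yp2 the hour 10 reading lay within or below the earlier window, while hours 11 and 12 lay above it, and for Yp3 all 3 late arrays did. The late differences were 0.68 ± 0.30, 0.55 ± 0.33 and 0.43 ± 0.24, and 1.07, 1.02 and 0.61 without hours 9 and 10. The gene apolpp, which encodes the precursor of the main lipid carrier of the blood, read 1371.1, 1078.6 and 835.3 and then 1514.6, 1488.1 and 1471.0 (0.47 ± 0.21, and 0.28 without hours 9 and 10). Here all 3 late arrays, hour 10 included, lay above the earlier window. A second apolpp probe set had a difference of 0.43 with overlapping windows, and 0.76 without hours 9 and 10. Of 10 lipid transport genes in all, 1 was higher on every array, 0 were lower and 6 had a lower mean, with a median of -0.04. Beside this, 2.84% of all tested probe sets were higher on every array, 5.97% were lower and 6905 of 11586 had a lower mean.

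**Figure D3:**
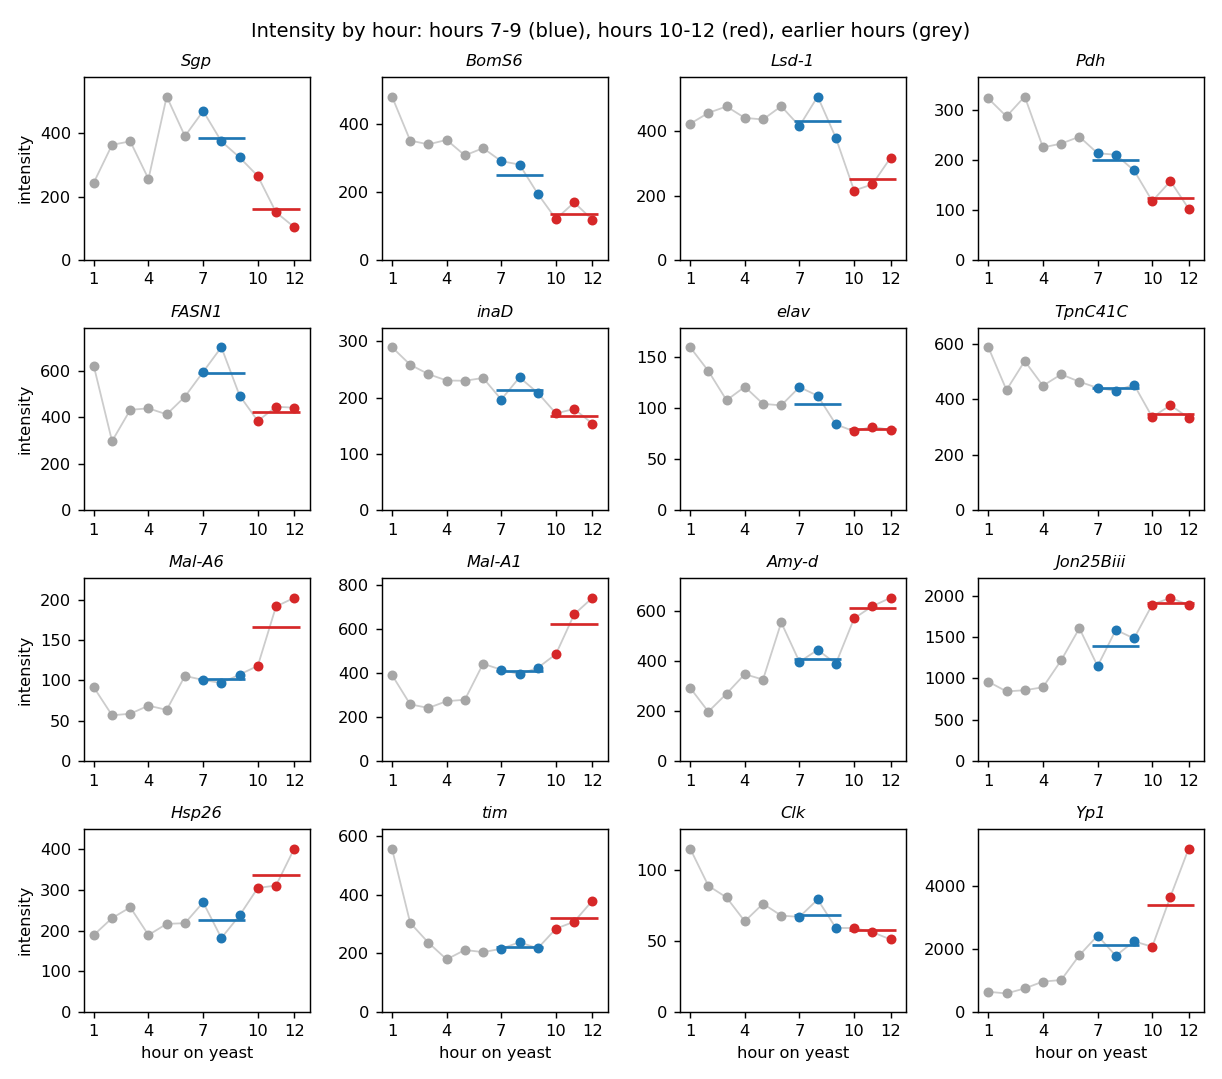
Intensity of 16 genes by hour on yeast, 1 point per array, with hours 7-9 in blue, hours 10-12 in red and earlier hours in grey. Horizontal bars mark the window means taken on the log2 scale, with values under the floor of 57.2 set to it. All red points lie below all blue points for Sgp, BomS6, Lsd-1, Pdh, FASN1, inaD, elav, TpnC41C and Clk and above them for Mal-A6, Mal-A1, Amy-d, Jon25Biii, Hsp26 and tim, while those of Yp1 overlap.

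The lowest difference of all belonged to Sgp, which read 471.0, 374.8 and 324.0 at hours 7 to 9 and 264.9, 149.9 and 102.9 at hours 10 to 12. Each of these arrays was below the one before it. The difference was -1.27 ± 0.33, and -1.76 without hours 9 and 10. At hours 1 to 6 it had read between 244.2 and 517.1. MtnC, a metallothionein gene named after its values were seen, read 491.2, 538.8 and 379.2 and then 235.6, 363.3 and 272.1 (-0.70 ± 0.23).

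Bomanins, short secreted peptides induced by the Toll immune pathway, were among the lower genes. BomS6 read 290.4, 280.4 and 194.2 and then 119.7, 168.5 and 117.6, a difference of -0.91 ± 0.18 after -0.23 in the earlier step. BomS4 read 102.0, 129.4 and 109.9 and then 64.0, 72.5 and 81.6, a difference of -0.65 ± 0.15. PGRP-LA, of the peptidoglycan recognition family, had a difference of -0.24 ± 0.07 and a second probe set at -0.03. Of 22 genes for antimicrobial peptides, Bomanins and recognition proteins 0 were higher and 5 lower on every array. Over all tested probe sets 2.84% were higher and 5.97% lower. The median of the 22 genes was -0.12, but 0.04 without hours 9 and 10. Among 15 storage, iron and calcium proteins of the fat body, 0 were higher and 5 lower, such as the ferritin subunit gene Fer1HCH, which read 1981.6, 2006.4 and 1764.5 and then 1542.0, 1758.3 and 1593.3 (-0.23 ± 0.09). After quantile normalization 1 of these 15 was higher and 3 were lower. Their median was -0.09, or -0.02 without hours 9 and 10.

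Transcripts of eye, nerve and muscle lay lower in several cases. Pdh, a retinol dehydrogenase of the eye, read 213.7, 210.7 and 179.1 and then 117.5, 157.6 and 102.1, a difference of -0.70 ± 0.13. The scaffold gene inaD, which holds the phototransduction complex together, read 196.6, 235.9 and 208.5 and then 171.9, 179.7 and 153.9 (-0.34 ± 0.09). The eye protein kinase C gene inaC had a difference of -0.37 ± 0.13. These 3 were the members lower on every array among 18 phototransduction genes, of which 16 had a lower mean and 0 were higher on every array, beside 6905 of 11586 probe sets with a lower mean. Among 30 genes of synapses and ion channels 5 were lower and 0 higher, yet after quantile normalization that count was 1. They include elav, which encodes an RNA-binding protein of neurons and read 120.6, 112.1 and 84.1 and then 77.3, 81.8 and 78.6 (-0.40 ± 0.15). ChAT, the enzyme that makes acetylcholine, was lower on both of its probe sets, by differences of -0.26 and -0.30. The cytoskeletal gene futsch had -0.36 on one probe set and -0.03 and -0.05 on the others. Among 25 sarcomere genes 2 were lower and 0 higher, the troponin C gene TpnC41C (-0.34 ± 0.10) and tn (-0.31 ± 0.11). After quantile normalization 1 of the 25 was lower. Of the 25, 17 had a lower mean and 8 a higher one, with differences up to 0.43. Over all tested probe sets 2.84% were higher on every array and 5.97% lower. List medians were -0.15 for phototransduction, -0.08 for synapses and -0.09 for sarcomeres, and -0.17, -0.20 and -0.13 without hours 9 and 10. All 3 medians kept their sign under quantile and median normalization. The genes had been lower in the earlier step too, with first differences of -0.41 for Pdh, -0.18 for inaD and -0.29 for elav.

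Clock transcripts differed among themselves. The clock repressor gene tim read 214.7, 237.1 and 216.1 and then 283.4, 307.1 and 378.9, a difference of 0.53 ± 0.24, with a second, dimmer probe set at 0.26 and also apart. In the earlier step tim had gone from 557.3 at hour 1 to 178.4 at hour 4, a window difference of -0.79, so that its late minus earlier difference was 1.32 ± 0.34 (limma adjusted p = 0.999). The tim partner per had a late difference of 0.05 ± 0.10 and overlapping windows. The repressor gene vri read 172.0, 191.8 and 205.9 and then 222.7, 218.9 and 209.3 (0.20 ± 0.09). The activator gene cyc had a difference of 0.20 ± 0.07, and its partner Clk one of -0.23 ± 0.13 near the floor (-0.35 without hours 9 and 10). Of 15 clock genes 3 were higher and 1 lower on every array, beside 2.84% and 5.97% of all tested probe sets. The time of day of each array is not given in the sources used here.

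Most transcripts of protein synthesis and turnover did not separate the windows. Of 66 mitochondrial ribosomal protein genes 0 were higher and 0 lower on every array, and the same held for 28 proteasome, 16 tRNA synthetase and 8 cytosolic chaperonin genes. After quantile normalization 5 of the 66 mitochondrial ribosomal genes and 6 of the 28 proteasome genes were higher and 0 lower, and the median of the first list turned from -0.02 to 0.04. Within hours 7 to 12 these lists shared a low hour 10. The median deviation of mitochondrial ribosomal genes from their mean over 12 arrays was 0.12, 0.16 and 0.14 at hours 7 to 9, -0.06 at hour 10, and 0.26 and 0.22 at hours 11 and 12. For the proteasome it was 0.10, 0.15 and 0.19, then -0.03, 0.32 and 0.37. The hour 10 array holds male transcripts and has the large GAPDH 3' to 5' difference, while its actin and eIF4A controls did not stand apart. The part of these measures in the low hour 10 was not tested. Without hour 10 the late median was 0.10 for mitochondrial ribosomes and 0.20 for the proteasome, against -0.02 and 0.08 with it. In single genes, Prosalpha6, a subunit of the proteasome core, read 411.1, 440.8 and 449.1 and then 430.5, 563.1 and 528.4 (0.22 ± 0.11, and 0.36 without hours 9 and 10). Sec61alpha, a subunit of the channel into the endoplasmic reticulum, read 1213.6, 1293.0 and 1356.2 and then 1320.4, 1553.6 and 1780.2 (0.26 ± 0.17, and 0.41 without hours 9 and 10). Ribosome biogenesis differed from these lists in its counts, with 0 of 39 genes higher, 5 lower and 34 with a lower mean, where 6905 of 11586 probe sets had one. Its median deviation was 0.14, 0.20 and 0.07 at hours 7 to 9 and -0.14, 0.11 and 0.05 at hours 10 to 12. After quantile normalization 1 of the 39 was higher and 2 were lower. The late median of the 39 was -0.11, against -0.02 for all tested probe sets. Without hour 10 it was -0.04 against -0.03, and without hours 9 and 10 it was -0.08 against -0.01. The lowest difference in this list was -0.72, that of ppan, a ribosome assembly gene named after its values were seen. ppan read 462.0 at hour 9, and its difference was -0.06 without hours 9 and 10. Of all 11586 tested probe sets 2.84% were higher on every array and 5.97% lower. After quantile normalization 621 were higher and 402 lower.

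**Figure D4:**
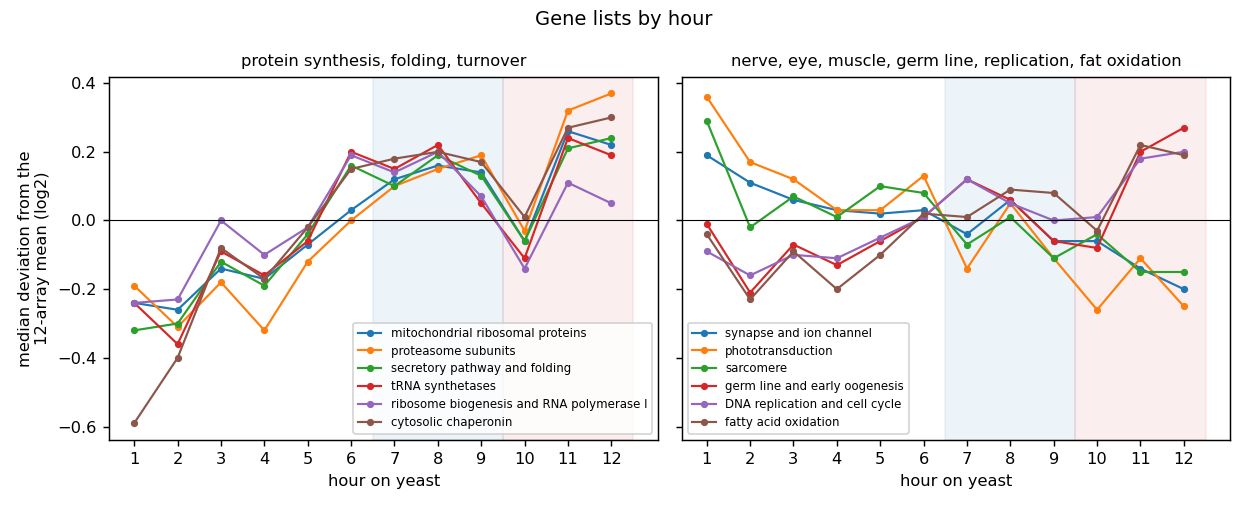
Median log2 deviation of each list's tested genes from their own mean over the 12 arrays, by hour on yeast, with hours 7-9 shaded blue and hours 10-12 red. On the left, the lists of protein synthesis, folding and turnover have their lowest point of hours 7 to 12 at hour 10. Examples are -0.06 for mitochondrial ribosomal proteins and -0.03 for the proteasome. Each of these lists is lower still at hour 1, with -0.24 and -0.19 for these examples. On the right, germ line genes are at 0.20 and 0.27 and synapse genes at -0.14 and -0.20 at hours 11 and 12.

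Over all tested probe sets 4669 of 11586 had a higher late mean, to be read beside the counts for replication and germ line genes. On every array 2.84% of the 11586 were higher and 5.97% lower. After quantile normalization 621 of them were higher and 402 lower. Of 30 replication and cell cycle genes 24 had a higher mean, 4 were higher on every array and 1 lower, and 7 and 0 after quantile normalization. RnrL, the large subunit of ribonucleotide reductase, read 145.9, 148.7 and 140.2 and then 150.3, 177.8 and 196.4 (0.26 ± 0.09). The replication licensing gene dup read 88.6, 85.4 and 86.3 and then 90.4, 107.5 and 117.9 (0.27 ± 0.10). The origin recognition gene Orc5 had a difference of 0.15 ± 0.06. Of 28 germ line genes 20 had a higher mean but 1 was higher on every array, and exu, which acts in placing messages in the oocyte, read 290.6, 224.5 and 218.5 and then 261.4, 358.8 and 505.0 (0.58 ± 0.23). Here hours 11 and 12 were above the earlier window and hour 10 was inside it. Of 12 egg shell genes 1 was higher, Cp19 by 0.14 ± 0.08 (0.07 without hours 9 and 10), and 0 were lower.

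Stress and nutrient signalling genes showed single cases. Hsp26, a small heat shock protein gene, read 269.5, 181.5 and 237.2 and then 305.1, 311.0 and 402.4 (0.57 ± 0.16). The cochaperone gene stv read 223.9, 263.5 and 190.4 and then 171.2, 183.1 and 179.8 (-0.33 ± 0.12), and a second stv probe set had 0.09. Of 17 heat shock genes 2 were higher and 1 lower. Among 20 autophagy genes 0 were higher and 3 lower, among them Atg6, the fly Beclin 1, which read 127.6, 135.1 and 158.7 and then between 108.7 and 116.4 (-0.31 ± 0.08). After quantile normalization 2 of the 20 were higher and 2 lower. Of 20 insulin and TOR genes 0 were higher and 1 lower, Lst8, a TOR complex subunit, by -0.17 ± 0.06 and near the floor. The insulin receptor gene InR had a difference of 0.09 ± 0.17 and the transcription factor gene foxo one of -0.13 ± 0.10 (0.05 and -0.08 without hours 9 and 10), both with overlapping windows. The neuropeptide genes AstC (-0.22 ± 0.07) and Dh31 (-0.37 ± 0.15) were lower on every array, 2 of 19 in their list. The counts of this paragraph are to be read beside 2.84% of all tested probe sets higher on every array and 5.97% lower.

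**Figure D5:**
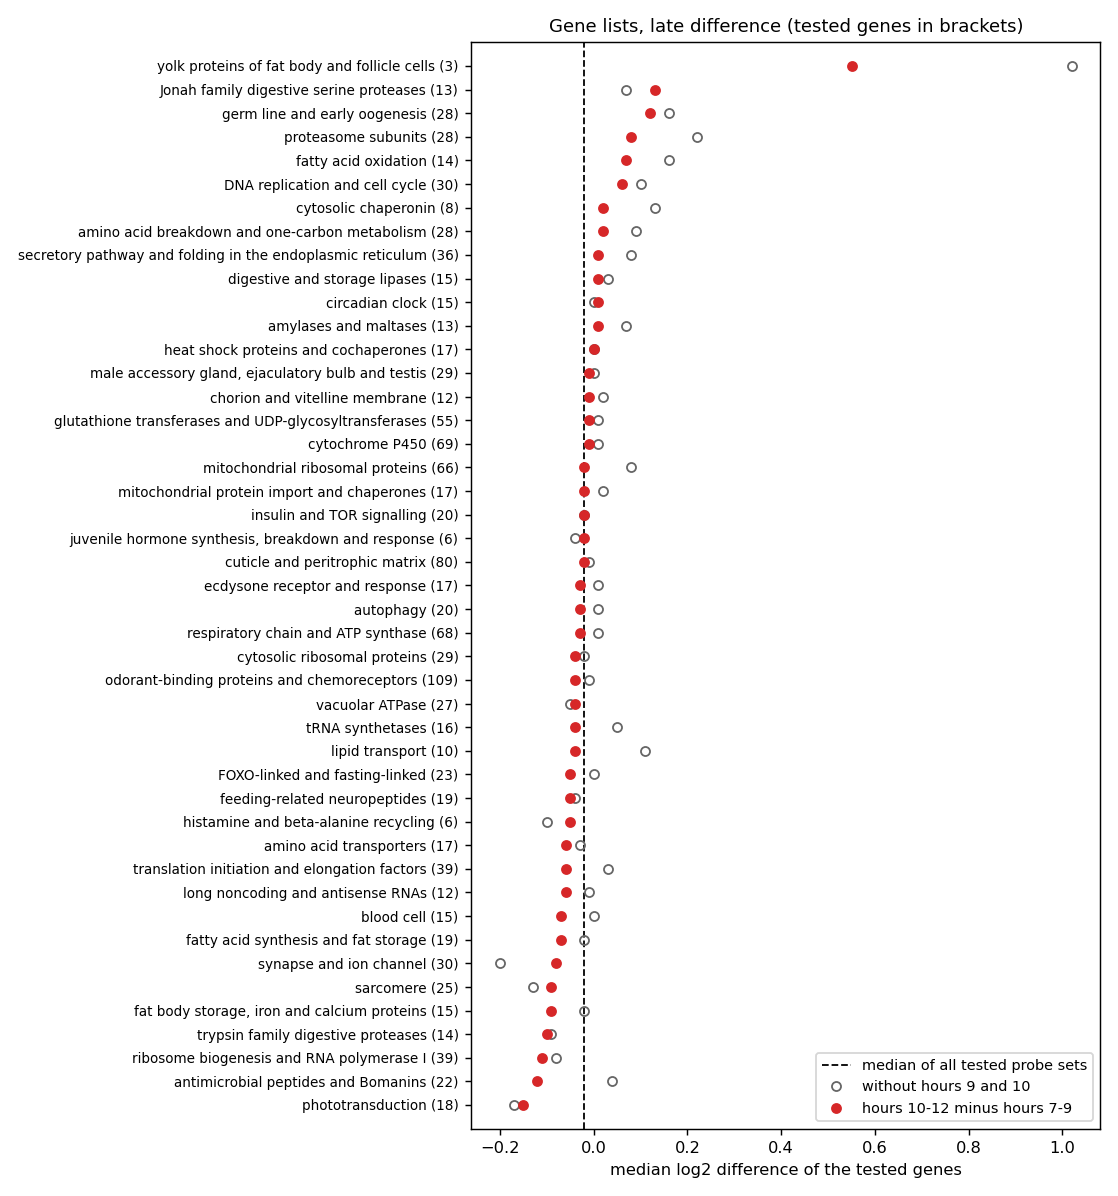
Median log2 difference of hours 10-12 minus hours 7-9 over the tested genes of each list (red), and the same without hours 9 and 10 (open circles). The dashed line is the median of all tested probe sets, -0.02. Yolk proteins are at 0.55 and phototransduction genes at -0.15.

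The remaining lists had medians between -0.07 and 0.02. Their counts give the genes higher on every array first and those lower second. Of 80 cuticle and peritrophic matrix genes 1 was higher and 9 lower, or 3 and 5 after quantile normalization. Of 109 odorant-binding proteins and chemoreceptors 2 were higher and 7 lower, such as Obp18a (-0.30 ± 0.09), or 5 and 6 after quantile normalization. The counts were 4 and 4 of 69 for cytochrome P450, 3 and 4 of 55 for glutathione and glycosyl transferases, 2 and 3 of 68 for the respiratory chain, 0 and 3 of 27 for the vacuolar ATPase, and 2 and 1 of 29 for cytosolic ribosomal proteins. They were 1 and 2 of 36 for the secretory pathway, 0 and 3 of 39 for translation factors, and 0 and 1 of 17 for amino acid transporters. For amino acid breakdown and one-carbon metabolism they were 4 and 0 of 28, also after quantile normalization. Ts, for thymidylate synthase, was 1 of the 4 (0.29 ± 0.10). Mitochondrial import had 1 and 0 of 17, lipases 0 and 0 of 15, and long noncoding RNAs 0 and 0 of 12. Ecdysone genes had 0 and 0 of 17, juvenile hormone genes 0 and 1 of 6, transmitter recycling 0 and 1 of 6 (t, an eye enzyme, by -0.27 ± 0.10), blood cell genes 0 and 1 of 15, and FOXO-linked and fasting-linked genes 0 and 1 of 23. Male gland and testis genes had 0 and 0 of 29. Their median deviation from the mean over 12 arrays was 0.24 and 0.14 at hours 9 and 10. It was -0.25, -0.25, -0.25 and -0.21 at hours 7, 8, 11 and 12. Not every member shared this. Mst98Ca read 597.5 and 632.0 at hours 9 and 10, and 602.8, 696.1, 563.8 and 507.2 at hours 7, 8, 11 and 12. The list counts of this paragraph are to be read beside 2.84% and 5.97% of all tested probe sets.

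The late difference was also set against the first one, hours 4-6 minus hours 1-3, with which it shares no array. No probe set differed between them at a limma adjusted p under 0.05 (0 of 11586, smallest adjusted p 0.999), and 436 (3.76%) did at an unadjusted one. Of the 692 probe sets below on every late array, 124 were also below on every array in the first step, which is 17.9% of the late list and 15.9% of the 778 (6.72% of those tested) in the first list. Another 32 (4.62%) lay the opposite way. Of the 329 above, 29 were also above in the first step, 8.81% of the late list and 5.05% of the 574 (4.95%) in the first, and 11 (3.34%) lay the opposite way. In single genes, Jon25Bii had 1.75 in the first step and 0.38 in the late one, and CG4716 had -1.58 and -0.18 (-0.29 without hours 9 and 10). Lsd-1 had -0.00 and -0.78, and BomS4 -0.01 and -0.65, although neither difference between the steps passed the adjusted test.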

How the data were processed

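The deposited table gives 1 intensity per probe set and array on a linear scale; per the labels' protocols the authors used Trizol for the RNA and dChip, with invariant selection, for normalization. Which dChip version and background model they used is not stated there. Intensities under the 20th percentile of the table, 57.2, were set to that floor before log2. The test took the 11586 of 13966 fly probe sets that passed the floor on 3 or more of 12 arrays, leaving out 2380. A probe set above the floor only in the window where it is high had to differ. By GEO's annotation of the platform, 12443 probe sets have 1 symbol, 327 have several and 1196 are unnamed.

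R 4.3.3 and limma 3.58.1 fitted 4 windows of 3 hours over the 12 arrays (8 residual degrees of freedom), with Benjamini-Hochberg adjustment over all tested probe sets and a threshold of 0.05. An exact permutation test of 3 against 3 arrays cannot go below 0.1 and was not used. Window differences are log2 of floored intensity, with the SE of the fit. The fit was tested on simulated data. In lists a gene is represented by its brightest probe set.

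Named genes were the 15 with the smallest p in each direction among probe sets of 1 symbol, above the floor on all 6 arrays and with windows apart (none passing the threshold), the 3 smallest p of each of 45 lists and a short list of marker genes; the text leaves some out. The comparison, lists and tests were chosen with earlier results of these data known. The pattern matching cytochrome P450 symbols was corrected afterwards to leave out a cyclophilin.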

Additional observations from a re-analysis of the deposited data

How the results depend on the processing

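Under all 18 alternatives tried, 0 probe sets passed the limma adjusted threshold in either direction for the late difference, and 0 for the late minus first difference where it could be fitted; the smallest adjusted p of the late difference under any of them was 0.057, without hour 11. At an unadjusted p under 0.05 the higher count of 127 was 234 without hours 9 and 10, 296 with quantile and 235 with median normalization, and 63 to 302 with 1 of the 6 arrays left out, the highest without hour 10 and the lowest without hour 12. The lower count of 441 was 255 for a slope over hours 7 to 12, 249 with quantile normalization, and 245 to 616 with 1 array left out, the lowest without hour 12. The late minus first count of 436 ran from 358 to 554 with 1 array left out. The 329 and 692 probe sets whose windows did not overlap became 621 and 402 with quantile and 541 and 452 with median normalization. With 2 arrays in a window separation is easier: 532 to 1302 and 1025 to 1902 with 1 array left out, and 2125 and 2610 without hours 9 and 10. Of 2975 values of the 167 named probe sets under alternatives, 31 in 12 probe sets changed sign, and none passed the threshold. No paired analysis was possible because nothing in the labels pairs an array of hours 7-9 with an array of hours 10-12. The number of arrays, 1 per hour, limits the precision.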

Other observations

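Of the 21 probe sets that were lower on every late array by a mean of at least 0.5, 7 had their highest intensity of the series at hour 9, and 8 had hours 3 and 9 as their highest 2 arrays. Without hours 9 and 10 the difference of 8 of the 21 was smaller than 0.5 in size. All genes in this paragraph were named after their values were seen. ppan, whose product acts in ribosome assembly, read 462.0 at hour 9, 195.5 at hour 3 and between 90.2 and 125.9 on the other 10 arrays, and its late difference of -0.72 became -0.06 without hours 9 and 10. Git read 521.5 at hour 9, 284.3 at hour 3 and between 137.7 and 160.1 on the other 10, and its difference of -0.70 became -0.14. Hours 3 and 9 hold male transcripts, as do hours 2, 5 and 10, where ppan read 98.2, 111.2 and 110.8. The part of male transcripts in the readings of ppan and Git was not tested. The part of hour 9 in the remaining probe sets was not tested. All 6 probe sets that were higher by at least 0.5 kept a difference of at least 0.5 without hours 9 and 10.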
